A study of Mus musculus with 4 samples.

Results

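The genes described here encode the enzymes of the urea cycle and of amino acid breakdown in the liver. They were taken by name from a list of 39 gene symbols, which was chosen with earlier results of these data known. Of these, 38 were tested, among 26135 genes and unnamed probes in all. Amt, which encodes the aminomethyltransferase of glycine cleavage, was not analysed here. The RNA came from the livers of 4 male Wrn mutant mice, which drank water with 0.4% vitamin C from weaning on, and of 4 male wild-type mice that received none. All were of the C57Bl/6 strain and 3 months old. Wrn encodes a RecQ helicase whose human counterpart is mutated in Werner syndrome, a disorder of early ageing, and the labels do not describe the mutant allele further. Each of 4 arrays carried 1 mutant liver labelled with Cy5 and 1 wild-type liver labelled with Cy3. No array had the dyes exchanged, and no mutant without vitamin C and no wild type with it were part of these samples. Genotype, vitamin C and dye therefore cannot be told apart in any value below. Values are log2 ratios of mutant over wild type, so that a positive value means more signal in the mutant, or levels, the normalized log2 intensity of 1 channel.

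Amino acids that are not used for protein lose their nitrogen in the liver, and the carbon that remains enters energy metabolism or glucose synthesis. Aminotransferases pass the amino groups to glutamate and aspartate, and glutamate dehydrogenase and glutaminase free ammonia from glutamate and glutamine. The urea cycle, which starts in mitochondria and ends in the cytosol of hepatocytes around the portal vein, turns this nitrogen into urea. Glutamine synthetase, in the hepatocytes next to the central vein, takes up what ammonia is left. Many of the genes are known to respond to glucagon, glucocorticoids and the protein content of the diet.

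Tat, Hal, Haao, Gls2, Gldc, Mccc1 and Gcdh were higher in the mutant livers, by 1.21- to 1.45-fold, and no gene of the list was lower. They begin or carry the breakdown of tyrosine, histidine, tryptophan, glutamine, glycine, leucine and lysine. The 7 genes are 18.4% of the 38 tested, at an adjusted p under 0.05 in limma with Benjamini-Hochberg adjustment over all 26135 genes and probes. Over all of these, 6.64% were higher and 5.57% were lower. At an unadjusted p under 0.05, 13 of the 38 were higher and 3 were lower, where 18.1% of all genes were higher and 14.1% lower. The share of higher genes depended on brightness. Of the 19 genes at or above the median intensity of the 38, 4 (21.1%) were higher, against 24.4% of the 537 genes that bright. Of the 19 dimmer ones, 3 (15.8%) were higher, against 6.74% of the 3664 genes in their range of intensity. Counts this small were not tested against those shares. The median log2 ratio of the 38 genes was 0.09, against 0.01 over all genes and 0.11 over those 537. Of the 38 mean ratios, 25 were positive, as were 53.1% of those of all genes.

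**Figure D1:**
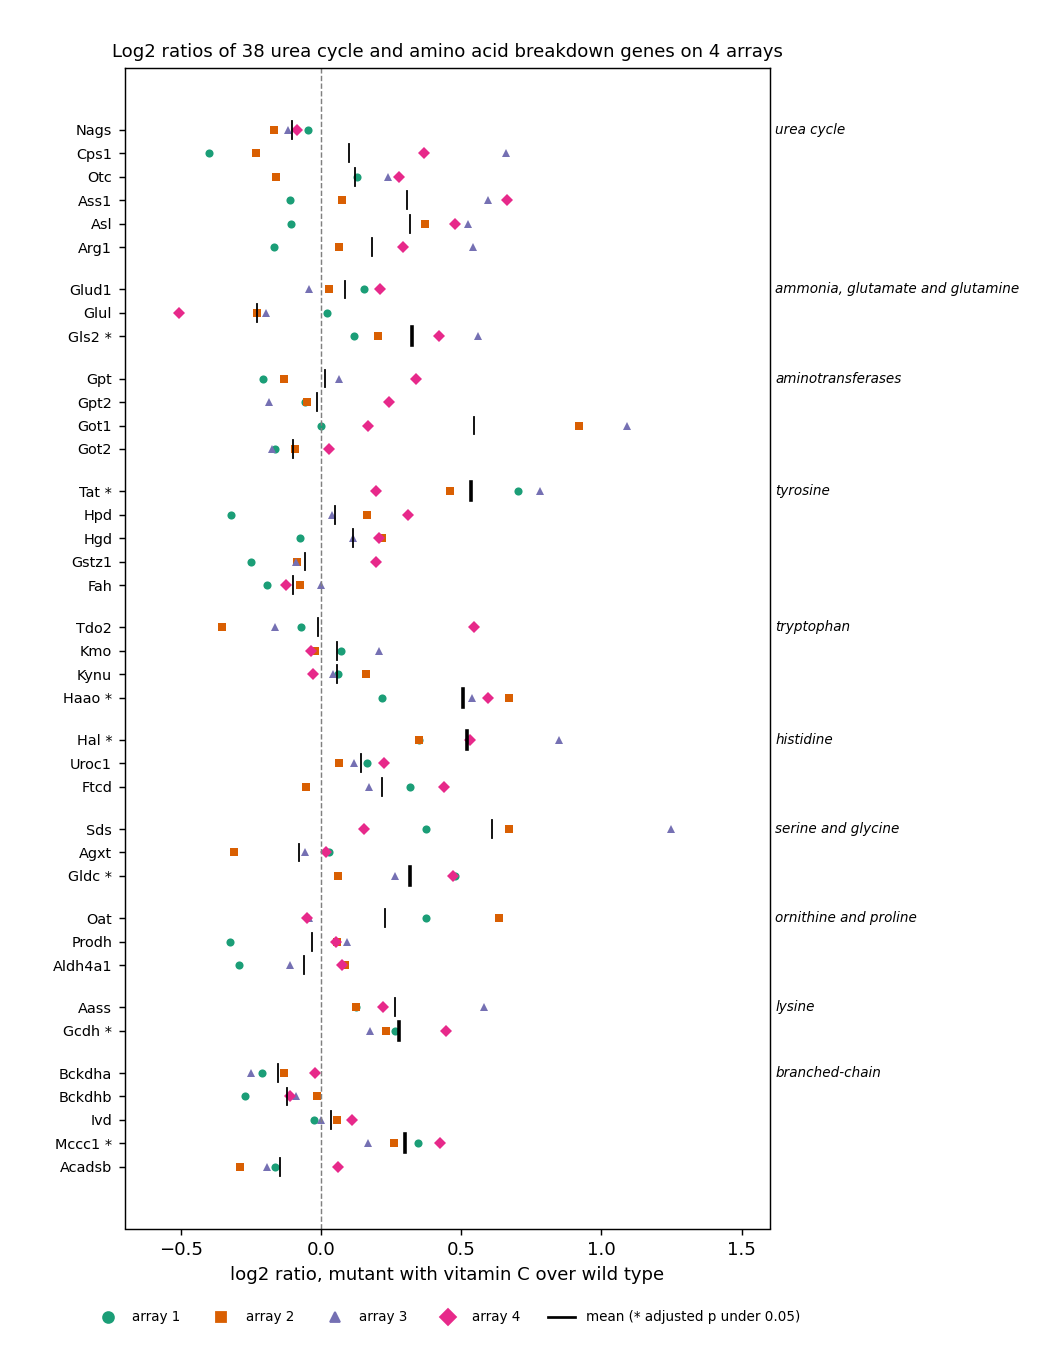
Log2 ratio of each of the 38 genes on each of the 4 arrays (points, 1 colour and shape per array), with the mean as a bar and genes grouped by pathway. The 7 genes with a star, at an adjusted p under 0.05, have all 4 points to the right of 0, while the urea cycle genes below Nags spread to both sides.

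The calls changed with the arrays and the processing, for these genes as for all genes. Without array 2, 0 of the 38 genes passed (12 higher and 1 lower at an unadjusted p under 0.05), and over all genes only 10 were higher and 9 lower. Without array 1, Asl and Haao passed, with 211 higher and 292 lower over all genes. Without array 3, Haao, Hal, Gcdh and Mccc1 passed, with 657 and 683, and without array 4 only Tat, with 227 and 234. The ratios themselves moved less, over 0.45 to 0.65 for Tat and 0.41 to 0.58 for Hal with 1 array left out. When the levels were compared as unpaired samples instead of as ratios within arrays, 0 of the 38 passed (9 higher and 0 lower at an unadjusted p under 0.05), and over all genes 16 were higher and 8 lower. With the scanner software's processed signals 0 of the 38 passed (10 higher and 3 lower unadjusted), with 405 higher and 406 lower over all genes. With each array centred on its median in place of loess 24 of the 38 were higher, with 3418 higher and 1512 lower over all genes. The direction of the 7 genes was positive under each of the 15 alternatives tried. All ratios of these 7 genes were positive, so leaving out an array could not turn a mean negative. Several other alternatives reused the same ratios. The median of the 38 genes was positive under each alternative as well, from 0.03 to 0.49. So was the median of all genes, from 0.006 to 0.03. With processed signals the medians were 0.03 for the 38 genes and 0.02 for all genes.

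The promoters of Tat, Hal, Mccc1 and Haao are shown because their genes are among the 7. Of the motifs counted below, Tat and Mccc1 hold CCAAT only, Hal holds CCAAT and a C/EBP form, and Haao holds none. Each runs from 250 bases before to 50 after the start of transcription, 5′ to 3′ on the gene's own strand, from RefSeq on GRCm38.p6. Capitals mark CCAAT, the box bound by NF-Y, on either strand (ATTGG on the other), and in Hal also TTGCNNAA, a form of the C/EBP site.
Tat, chr8:109990186-109990485, plus strand: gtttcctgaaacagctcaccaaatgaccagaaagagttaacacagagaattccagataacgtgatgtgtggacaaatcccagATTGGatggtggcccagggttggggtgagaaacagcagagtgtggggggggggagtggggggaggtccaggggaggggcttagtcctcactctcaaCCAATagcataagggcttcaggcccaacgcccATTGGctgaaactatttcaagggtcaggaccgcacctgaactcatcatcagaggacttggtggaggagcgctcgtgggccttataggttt
Hal, chr10:93488518-93488817, plus strand: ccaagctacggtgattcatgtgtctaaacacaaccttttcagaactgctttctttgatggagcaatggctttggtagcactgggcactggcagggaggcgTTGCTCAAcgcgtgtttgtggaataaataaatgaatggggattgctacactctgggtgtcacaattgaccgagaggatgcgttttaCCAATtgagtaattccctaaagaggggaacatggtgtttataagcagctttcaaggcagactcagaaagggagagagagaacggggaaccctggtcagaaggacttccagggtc
Mccc1, chr3:36000629-36000928, minus strand: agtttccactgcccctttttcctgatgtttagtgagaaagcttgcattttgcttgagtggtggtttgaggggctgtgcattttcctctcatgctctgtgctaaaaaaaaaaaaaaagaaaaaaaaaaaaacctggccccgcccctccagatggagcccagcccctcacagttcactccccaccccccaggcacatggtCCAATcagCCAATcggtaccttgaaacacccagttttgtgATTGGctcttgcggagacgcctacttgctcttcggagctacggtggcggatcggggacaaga
Haao, chr17:83846741-83847040, minus strand: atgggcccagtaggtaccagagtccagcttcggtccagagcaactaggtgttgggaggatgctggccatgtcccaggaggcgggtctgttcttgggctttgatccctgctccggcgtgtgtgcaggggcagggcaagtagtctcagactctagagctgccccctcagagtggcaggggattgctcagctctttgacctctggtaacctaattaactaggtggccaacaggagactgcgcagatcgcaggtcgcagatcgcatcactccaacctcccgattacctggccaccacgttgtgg
A promoter of this length was given for 31 of the 38 genes, and for 6 of the 7 that were higher, all but Gls2. CCAAT on either strand was found in 16 of the 31 genes (51.6%) and in 5 of those 6, with Haao as the exception, against 37.4% of all 32851 promoters. Here and below the listed genes are counted per gene, and all promoters singly. The 31 genes had 33 promoters, as Bckdhb and Gstz1 had 2 each, so the units differ. The C/EBP form TTGCNNAA on either strand was found in 5 genes, namely Aass, Acadsb, Gcdh, Hal and Hgd, against 10.8% of all promoters. TATAAA on the gene's strand was found in Ftcd and Tdo2, against 8.32% of all, and CACGTG on either strand in Ass1, against 7.15%. The cyclic AMP response element TGACGTCA was found in 0 of the 31, against 1.79% of all promoters, and the HNF4 form CAAAGTCCA in 0, against 0.475%. No match overlapped another in these promoters. These are matches of letters in 1 window and were not tested against the ratios.

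Of the 6 urea cycle genes, 0 passed the limma test (Asl higher and Nags lower at an unadjusted p under 0.05). The ratios of all but Nags had an SD between arrays of 0.198 or more. The median SD of all genes, not matched for brightness, was 0.10. The median ratio of the 6 genes was -0.11 on array 1, -0.05 on array 2, 0.53 on array 3 and 0.33 on array 4. Cps1 encodes carbamoyl phosphate synthetase 1, which takes up ammonia at the first step. Its level was 17.01, 16.81, 17.15 and 16.92 in the mutant livers of arrays 1 to 4, against 17.41, 17.04, 16.49 and 16.55 in the wild-type livers. The wild-type livers thus lay on both sides of the mutant ones, and the ratio was 0.10 ± 0.50 (SD, n = 4 arrays; adjusted p = 0.727). Ass1, argininosuccinate synthase, had levels of 17.49, 17.38, 17.38 and 17.42 in the mutants, against 17.60, 17.31, 16.78 and 16.76 in the wild types. The SD was 0.05 among the mutant livers and 0.41 among the wild types, of which those of arrays 3 and 4 were low. The ratio of Ass1 was 0.31 ± 0.38 (95% interval -0.01 to 0.62; adjusted p = 0.168), and a second probe gave 0.40 ± 0.39.

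Asl, argininosuccinate lyase, which releases arginine and fumarate, had levels of 15.55, 15.74, 15.55 and 15.65 in the mutants, against 15.66, 15.37, 15.02 and 15.18 in the wild types. Its ratio was 0.32 ± 0.29 (adjusted p = 0.0918), negative on array 1 only, and without array 1 it passed the test. Arg1, the arginase that forms urea, gave a ratio of 0.18 ± 0.30 (adjusted p = 0.295), with the lowest wild-type level, 15.76, on array 3. Otc, ornithine transcarbamylase, gave 0.12 ± 0.20 (adjusted p = 0.323) in its brightest probe and 0.15 and -0.11 in the others. Nags makes N-acetylglutamate, without which Cps1 is inactive. Its 4 ratios were -0.05, -0.17, -0.12 and -0.09, a mean of -0.10 ± 0.05 (adjusted p = 0.151), and a second, dimmer probe gave 0.10 ± 0.06, so that the probes of this gene differed in sign. In all 6 urea cycle genes the mutant levels had a smaller SD than the wild-type levels. This held for 30 of the 38 genes (78.9%), against 49.2% of all genes, which were not matched for brightness, and its cause was not tested.

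**Figure D2:**
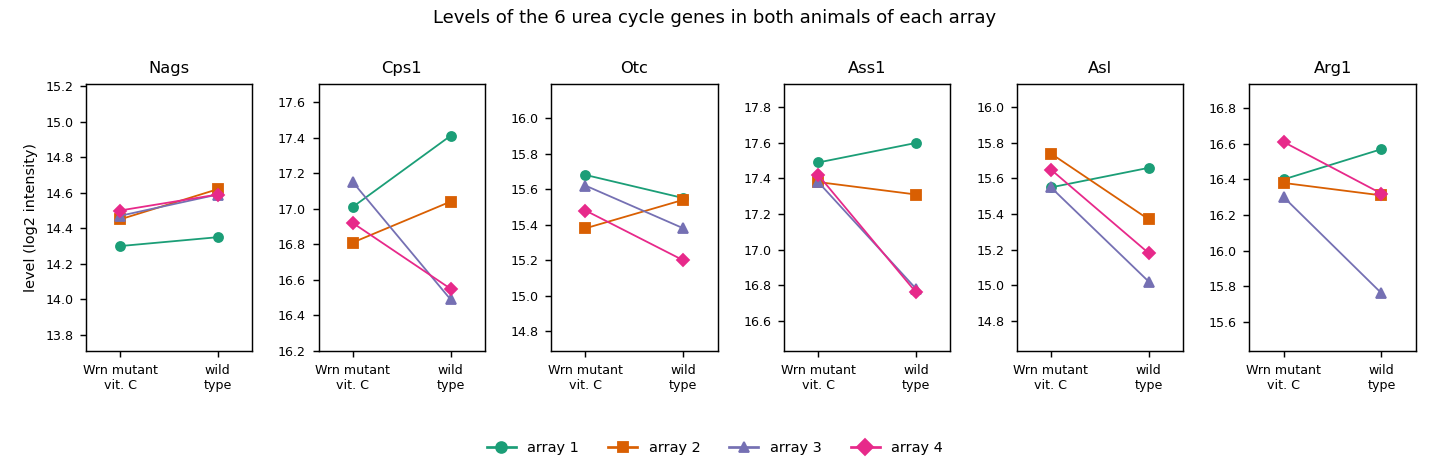
Level (log2 intensity) of the 6 urea cycle genes in the mutant and the wild-type liver of each array, joined by a line, on axes of equal span. In Cps1, Ass1, Asl and Arg1 the mutant points span less than the wild-type points, of which those of arrays 3 and 4 lie below that of array 1.

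Of the 3 genes that handle ammonia, glutamate and glutamine, Gls2 was higher. It encodes the liver-type glutaminase, which feeds ammonia and glutamate to the urea cycle. Gls2 levels were 15.94, 16.31, 16.35 and 16.27 in the mutants, against 15.82, 16.11, 15.79 and 15.85 in the wild types. The mutant was the higher of the pair on each array, but the groups overlapped through the mutant of array 1. The ratio was 0.32 ± 0.20 (adjusted p = 0.0444), and it was past the threshold under 6 of the 15 alternatives, none of them the omission of an array. Glud1, glutamate dehydrogenase, had a ratio of 0.09 ± 0.12 (adjusted p = 0.324). Glul, glutamine synthetase, averaged -0.23 ± 0.22 (adjusted p = 0.113), lowest at -0.51 on array 4, beside -0.19 and -0.24 in its dimmer probes. The Glul levels of array 1, 14.72 in the mutant and 14.70 in the wild type, were below those of all other arrays, where the mutants had 15.03 to 15.32 and the wild types 15.52 to 15.54.

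Of the 4 general aminotransferases, 0 passed the limma test, and at an unadjusted p under 0.05 only Got1 was higher and 0 were lower. Got1, the cytosolic aspartate aminotransferase, had levels of 15.31, 15.49, 15.08 and 14.78 in the mutants, against 15.31, 14.57, 13.99 and 14.61 in the wild types. Its ratios of 0.00, 0.92, 1.09 and 0.17 averaged 0.55 ± 0.54, the largest SD of the 38 genes (adjusted p = 0.098). Got2, the mitochondrial form, had -0.10 ± 0.09 (adjusted p = 0.218). The alanine aminotransferases Gpt and Gpt2 had 0.02 ± 0.24 and -0.01 ± 0.18 (adjusted p = 0.924 and 0.919). The 95% intervals were -0.22 to 0.02 for Got2, -0.20 to 0.23 for Gpt and -0.19 to 0.16 for Gpt2. Changes within these intervals were not excluded.

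In tyrosine breakdown the first enzyme was higher and the later ones did not pass the test. Tat, tyrosine aminotransferase, is the rate-limiting step and a classic target of glucocorticoids. It had levels of 17.13, 17.25, 17.04 and 17.26 in the mutants, against 16.43, 16.79, 16.26 and 17.06 in the wild types. The ratios were 0.70, 0.46, 0.78 and 0.20, a mean of 0.54 ± 0.26 or 1.45-fold (adjusted p = 0.0242), the largest among the 7. Only the wild type of array 4 came within the range of the mutants. The enzymes that follow had ratios near 0, namely Hpd with 0.05 ± 0.27, Hgd with 0.12 ± 0.14, Gstz1 with -0.06 ± 0.18 and Fah with -0.10 ± 0.08. Their adjusted p-values were 0.768, 0.233, 0.630 and 0.208. Hpd makes homogentisate, Hgd opens its aromatic ring, and Gstz1 and Fah carry the product on to fumarate and acetoacetate. The difference between Tat and these genes was not tested.

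Of the kynurenine pathway of tryptophan, Haao was higher. It encodes the dioxygenase of 3-hydroxyanthranilate, a step on the way to nicotinamide nucleotides. Haao levels were 13.39, 12.94, 12.68 and 12.66 in the mutants, against 13.17, 12.27, 12.14 and 12.06 in the wild types. Array 1 was high in both animals, which made the groups overlap, and the ratios were 0.22, 0.67, 0.54 and 0.59. Their mean was 0.51 ± 0.20 (adjusted p = 0.0177), the smallest p of the 38 genes, and Haao passed under 11 of the 15 alternatives. Tdo2, the dioxygenase that starts the pathway, had ratios of -0.07, -0.35, -0.16 and 0.55, a mean of -0.01 ± 0.39 (adjusted p = 0.964). A second probe of Tdo2 gave -0.19 ± 0.32. Kmo, which hydroxylates kynurenine, had 0.06 ± 0.11, and Kynu, kynureninase, had 0.06 ± 0.08 (adjusted p = 0.521 and 0.437).

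All 3 histidine genes had positive mean ratios, and the first enzyme was higher. Hal, histidine ammonia-lyase, frees the amino group of histidine directly as ammonia. It had levels of 16.00, 15.75, 15.99 and 15.69 in the mutants, against 15.65, 15.41, 15.14 and 15.16 in the wild types. The lowest mutant lay above the highest wild type, and the ratios of 0.35, 0.35, 0.85 and 0.53 averaged 0.52 ± 0.24 or 1.43-fold (adjusted p = 0.0217). Uroc1, urocanase, had ratios of 0.16, 0.06, 0.12 and 0.22, a mean of 0.14 ± 0.07 (adjusted p = 0.0847). Ftcd, which passes the formimino group of histidine to folate, had 0.22 ± 0.21 (adjusted p = 0.119), with array 2 at -0.05.

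Among the serine and glycine genes, Gldc was higher. It encodes the decarboxylase subunit of the glycine cleavage system. Gldc levels were 14.46, 14.03, 14.16 and 14.07 in the mutants, against 13.98, 13.97, 13.90 and 13.59 in the wild types. The groups did not overlap, although on array 2 the animals differed by only 0.06. The ratio was 0.32 ± 0.20 (adjusted p = 0.0450). Sds, serine dehydratase, which makes pyruvate from serine and is strongly induced by fasting and protein, had the largest mean of the 38 genes without passing. Its levels were 14.93, 14.94, 14.80 and 14.36 in the mutants, against 14.56, 14.27, 13.55 and 14.21 in the wild types. The ratios of 0.38, 0.67, 1.25 and 0.15 were all positive but unequal, with a mean of 0.61 ± 0.48 or 1.53-fold (95% interval 0.22 to 1.00; adjusted p = 0.0558). Sds was the only gene of the list at 1.5-fold or more. Agxt, the peroxisomal aminotransferase of glyoxylate, had -0.08 ± 0.16 (adjusted p = 0.448).

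**Figure D3:**
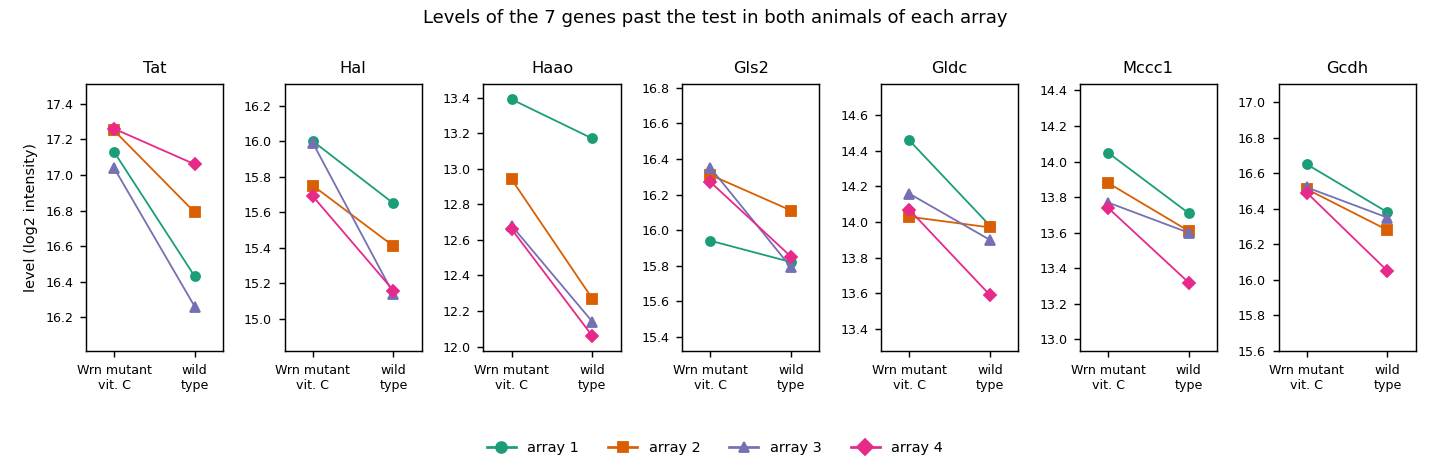
Level (log2 intensity) of the 7 genes past the test in the mutant and the wild-type liver of each array, joined by a line, on axes of equal span and in the order of the ratio. On every array the mutant point lies above its wild-type partner, and in Hal, Gldc, Mccc1 and Gcdh all mutant points lie above all wild-type points.

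The 3 ornithine and proline genes did not pass, at an adjusted or an unadjusted p under 0.05 in limma. Oat, ornithine aminotransferase, had ratios of 0.37, 0.64, -0.04 and -0.05, a mean of 0.23 ± 0.34 (adjusted p = 0.231). Prodh, proline dehydrogenase, had -0.03 ± 0.20, and Aldh4a1, which oxidizes the product of Prodh to glutamate, had -0.06 ± 0.18 (adjusted p = 0.810 and 0.601). In both, array 1 was the lowest, at -0.33 for Prodh and -0.29 for Aldh4a1.

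Both lysine genes had positive ratios on all 4 arrays. Gcdh, glutaryl-CoA dehydrogenase, which acts late in the breakdown of lysine and tryptophan, had levels of 16.65, 16.51, 16.52 and 16.49 in the mutants, against 16.38, 16.28, 16.35 and 16.05 in the wild types. The groups did not overlap, and the ratios of 0.26, 0.23, 0.17 and 0.45 averaged 0.28 ± 0.12 (adjusted p = 0.0301). Aass, the bifunctional enzyme of the first steps, had ratios of 0.13, 0.12, 0.58 and 0.22, a mean of 0.26 ± 0.22 (adjusted p = 0.0808).

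Of the 5 branched-chain genes, Mccc1 was higher and 0 were lower in the probes that stand for their genes. Mccc1, a subunit of methylcrotonyl-CoA carboxylase in leucine breakdown, had levels of 14.05, 13.88, 13.77 and 13.74 in the mutants, against 13.71, 13.61, 13.60 and 13.32 in the wild types. All mutants lay above all wild types, and the ratios of 0.35, 0.26, 0.17 and 0.42 averaged 0.30 ± 0.11 (adjusted p = 0.0247). A second probe gave 0.22 ± 0.14 (adjusted p = 0.0616 over all probes, of which 13.0% passed in either direction). Bckdha and Bckdhb encode the E1 subunits of the branched-chain ketoacid dehydrogenase, the committed step. The ratios of Bckdha were -0.21, -0.13, -0.25 and -0.02, a mean of -0.15 ± 0.10 (adjusted p = 0.0975). Bckdhb had -0.27, -0.02, -0.09 and -0.11, a mean of -0.12 ± 0.11 (adjusted p = 0.169). The second probe of Bckdhb gave -0.21 ± 0.08 and was past the threshold among probes (adjusted p = 0.0362), while the second of Bckdha gave -0.06 ± 0.06. Ivd, isovaleryl-CoA dehydrogenase, had 0.04 ± 0.06, and Acadsb, which acts on isoleucine, had -0.15 ± 0.15 (adjusted p = 0.619 and 0.167).

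Mutant levels lay above all wild-type levels in 4 of the 38 genes, namely Hal, Gldc, Gcdh and Mccc1, and below them in 0. Over all 26028 genes with both levels on 4 arrays, 3.29% lay above and 4.20% below. Ratios had 1 sign on all arrays in 13 of the 38 genes, 10 positive and 3 negative, where 40.4% of all genes had 1 sign. The ratios of the 38 genes were more unequal between arrays than those of genes in general, with a median SD of 0.20 against 0.10. Of the 38 genes, 17 (44.7%) had their lowest ratio on array 1, as had 22.9% of all genes. On array 4, 16 (42.1%) had their highest ratio, as had 20.9% of all genes. These values of all genes were not matched for brightness, and only 2.06% of all genes reached the median intensity of the 38. The median ratio of the 38 genes was -0.01, 0.06, 0.10 and 0.21 on arrays 1 to 4. Array 1 also had the fewest probes well above background, 82.5% in the mutant and 84.2% in the wild type, against at least 94.4% and at most 96.1% in either channel of the other arrays, and the part of this in the ratios was not tested.

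Most genes of the list are bright, and bright genes as a whole leaned to the mutant. Only 2.06% of all genes reached the median intensity of the 38, 15.54. In bins of 0.5 units of mean log2 intensity, the median ratio of all genes was 0.07 from 16, 0.13 from 16.5, 0.23 from 17 and 0.42 from 17.5. In those bins 16.1%, 25.7%, 44.0% and 52.9% of genes were higher. Tat, Gls2 and Gcdh lay in this range, with mean intensities of 16.91, 16.06 and 16.41 and bin medians of 0.13, 0.07 and 0.07. Hal, at 15.60, lay in a bin with a median of 0.01, in which 13.7% of genes were higher. The bins of Gldc, Mccc1 and Haao, which were dimmer, had medians of -0.04, -0.06 and -0.02. Ass1 and Cps1, at 17.27 and 16.93, had ratios of 0.31 and 0.10 beside bin medians of 0.23 and 0.13. The part of brightness in these ratios was not tested.

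**Figure D4:**
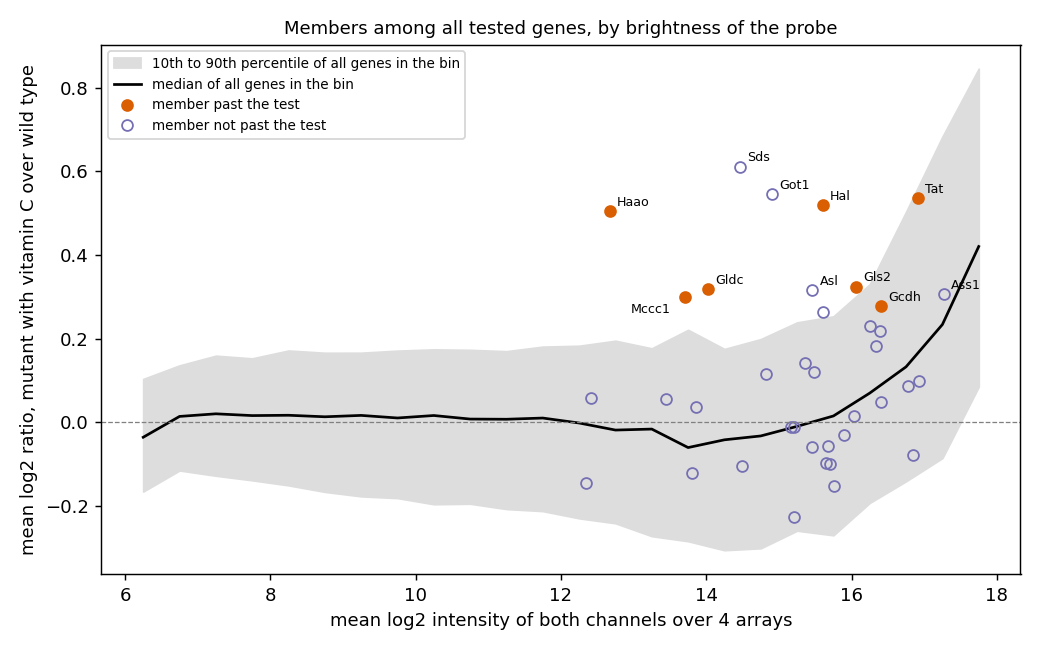
Mean log2 ratio against mean log2 intensity of both channels for the 38 genes (points; filled where past the test), over the median (line) and the 10th to 90th percentile (grey band) of all tested genes in bins of intensity. The line rises above 0 beyond an intensity of 16, where Tat, Gls2 and Gcdh lie. At lower intensity Haao, Mccc1, Gldc and Hal stand above the band, as do Sds, Got1, Asl and Aass, which did not pass.

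Some cell type markers differed between the groups as well, and most did not pass the test. Over all genes, 6.64% were higher and 5.57% lower, or 18.1% and 14.1% at an unadjusted p under 0.05 in limma. The counts and sums of the markers were not tested against other genes. In bulk liver, fewer cells of a type and less RNA per cell cannot be told apart. All 10 hepatocyte markers were well above background in both channels of all arrays. Their summed level was 20.70 to 20.85 in the mutants, against 20.34 to 20.55 in the wild types, without overlap. Of the 10, Alb (0.85), Apoa2 (0.84) and Ttr (0.46) were higher and Hnf4a (-0.25) was lower, with 5 higher and 2 lower at an unadjusted p under 0.05. Among the markers that did not pass, Trf had 0.34, Ahsg 0.27 and Fgb 0.20, while Cyp2e1 had -0.27, Apoa1 -0.11 and Apob -0.03, so that the sum does not stand for each marker. The sum was formed from linear intensities, so the brightest markers weigh most in it. Over all genes, the median ratio was 0.23 in the bin of intensity from 17 and 0.42 in that from 17.5. The part of brightness in the sum was not tested. The 6 cholangiocyte markers summed to 13.68 to 13.91 in the mutants, against 14.13 to 14.50 in the wild types, with Sox9 (-0.58) and Spp1 (-0.63) lower, and 4 of the 6 above background throughout. The 8 sinusoidal endothelial markers summed to 15.52 to 15.64, against 15.71 to 15.97, with Kdr (-0.24) and Clec4g (-0.35) lower. The 8 stellate cell markers overlapped, at 15.90 to 16.03 and 15.87 to 16.25, with Col1a1 (-0.34) and Col3a1 (-0.51) lower. The probes of some markers differed, with other probes at 0.01 and -0.23 for Sox9, 0.04 and 0.11 for Clec4g, -0.43 and 0.06 for Col1a1, and 0.09 and 0.01 for Col3a1. The 10 markers past the threshold kept their direction under the 15 alternatives, and the other markers were not followed there. No marker of Kupffer cells, lymphocytes, neutrophils, kidney or pancreas passed, of 8, 7, 4, 4 and 5 tested, although T and B cell and pancreatic markers had 2 each higher at an unadjusted p under 0.05 and neutrophil markers 1 lower. The part of these shifts in the 7 genes was not tested. The Wrn probe itself had a ratio of 0.00 ± 0.02 (adjusted p = 0.987), and since the labels do not say where the mutation lies relative to the probe, this does not check the genotype.

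Of 49 other genes of amino acid breakdown tested, 3 were higher and 1 was lower, with a median ratio of 0.06. Over all genes 6.64% were higher and 5.57% lower, and the counts of this list were not tested against those shares. Ccbl2, a kynurenine aminotransferase, had ratios of 0.45, 0.44, 0.40 and 0.46, a mean of 0.44 ± 0.03 (adjusted p = 0.00863). Amdhd1, the imidazolonepropionase that acts between Uroc1 and Ftcd, had 0.31 ± 0.10 (adjusted p = 0.0213), though 0.13 in its second probe. Pcbd1, which recycles the cofactor of phenylalanine hydroxylase, had 0.28 ± 0.11 (adjusted p = 0.0271). Grhpr, the reductase of glyoxylate, was the 1 lower gene, with -0.29 ± 0.08 (adjusted p = 0.0213), but had 0.22 with arrays centred on the median in place of loess. Of 6 genes of amino acid synthesis, Psph, the last enzyme of serine synthesis, was higher at 0.43 ± 0.07 (adjusted p = 0.0111) and 0 were lower (1 at an unadjusted p under 0.05), with a median ratio of 0.04.

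Of 13 carriers and regulators of ureagenesis tested, 0 were higher (3 at an unadjusted p under 0.05) and 4 were lower. The shares over all genes were 6.64% higher and 5.57% lower. The median ratio of the 13 genes was -0.13, or 0.01 with arrays centred on the median. Slc7a2, a carrier of arginine and other cationic amino acids, had the largest change, with ratios of -1.86, -1.45, -1.22 and -1.29 and a mean of -1.45 ± 0.28 (adjusted p = 0.00469). Aqp9, a channel for glycerol and urea, had -0.36 ± 0.09, and Slc1a2, a glutamate carrier, had -0.28 ± 0.09 (adjusted p = 0.0156 and 0.0231). Their other probes gave -0.14 and -0.23 for Aqp9, and -0.19, -0.42 and -0.02 for Slc1a2. Slc25a13, the mitochondrial exchanger of aspartate and glutamate that supplies aspartate to Ass1, had -0.23 ± 0.09 (adjusted p = 0.0358), and 0.05 with median centring.

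Of 14 hormone receptors and transcription regulators known to act on such genes, 1 was higher and 5 were lower. The shares over all genes were 6.64% higher and 5.57% lower. The median ratio of the 14 genes was -0.17, or 0.12 with median centring. Foxo1, which insulin signalling keeps out of the nucleus, had -0.60 ± 0.05 (adjusted p = 0.00476), and -0.21 in its second probe. Cebpa, of the C/EBP family, had -0.41 ± 0.13 (adjusted p = 0.0163), but 0.15 in its other probe. Crebbp, a coactivator of CREB, and Hnf4a, a nuclear receptor of hepatocytes, had -0.34 ± 0.12 and -0.25 ± 0.10 (adjusted p = 0.0198 and 0.0304). Their other probes lay nearer to 0, at 0.01 and -0.05 for Crebbp and -0.01 and -0.15 for Hnf4a. Foxo3 was the 1 higher gene, at 0.25 ± 0.04 (adjusted p = 0.0211), with a second probe at -0.15. Of 9 glucocorticoid response genes, Dusp1, a phosphatase of MAP kinases, was lower at -1.32 ± 0.28 (adjusted p = 0.00543), and 0 were higher (2 at an unadjusted p under 0.05).

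Lists of genes with known zones in the liver lobule gave calls in both directions. Of 11 periportal genes, 1 was higher and 3 were lower. Beside these and the pericentral counts below, 6.64% of all genes were higher and 5.57% lower. Agxt2l1 was the higher one, at 0.57 ± 0.17 (adjusted p = 0.0133), but its second probe gave -2.01, and the mean of both was -0.72. Rnase4 had -0.77 ± 0.25 (adjusted p = 0.0133) and Cdh1, E-cadherin, had -0.42 ± 0.28 (adjusted p = 0.0460), beside Slc7a2. Of 14 pericentral genes, Rgn was higher at 0.42 ± 0.20 (adjusted p = 0.0242) and 4 were lower. Those were Tbx3 at -0.90 ± 0.06 (adjusted p = 0.00198), with a second probe at 0.17, Axin2, a target of Wnt signalling, at -0.47 ± 0.14 (adjusted p = 0.0140), Cyp1a2 at -0.42 ± 0.22 (adjusted p = 0.0299), and Slc1a2. A second probe of Cyp1a2 gave -0.21. The median ratio was -0.21 over the periportal and -0.22 over the pericentral genes, but with median centring it was 0.26 over the periportal and -0.05 over the pericentral ones.

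The calls of single genes are set out under each way of processing in the map of alternatives. Haao was past the threshold under 11 of 15 alternatives, Tat, Hal, Gcdh and Mccc1 under 10, Gldc under 9 and Gls2 under 6. At an adjusted p under 0.05, 0 of the 38 genes were lower under any of the 15.

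**Figure D5:**
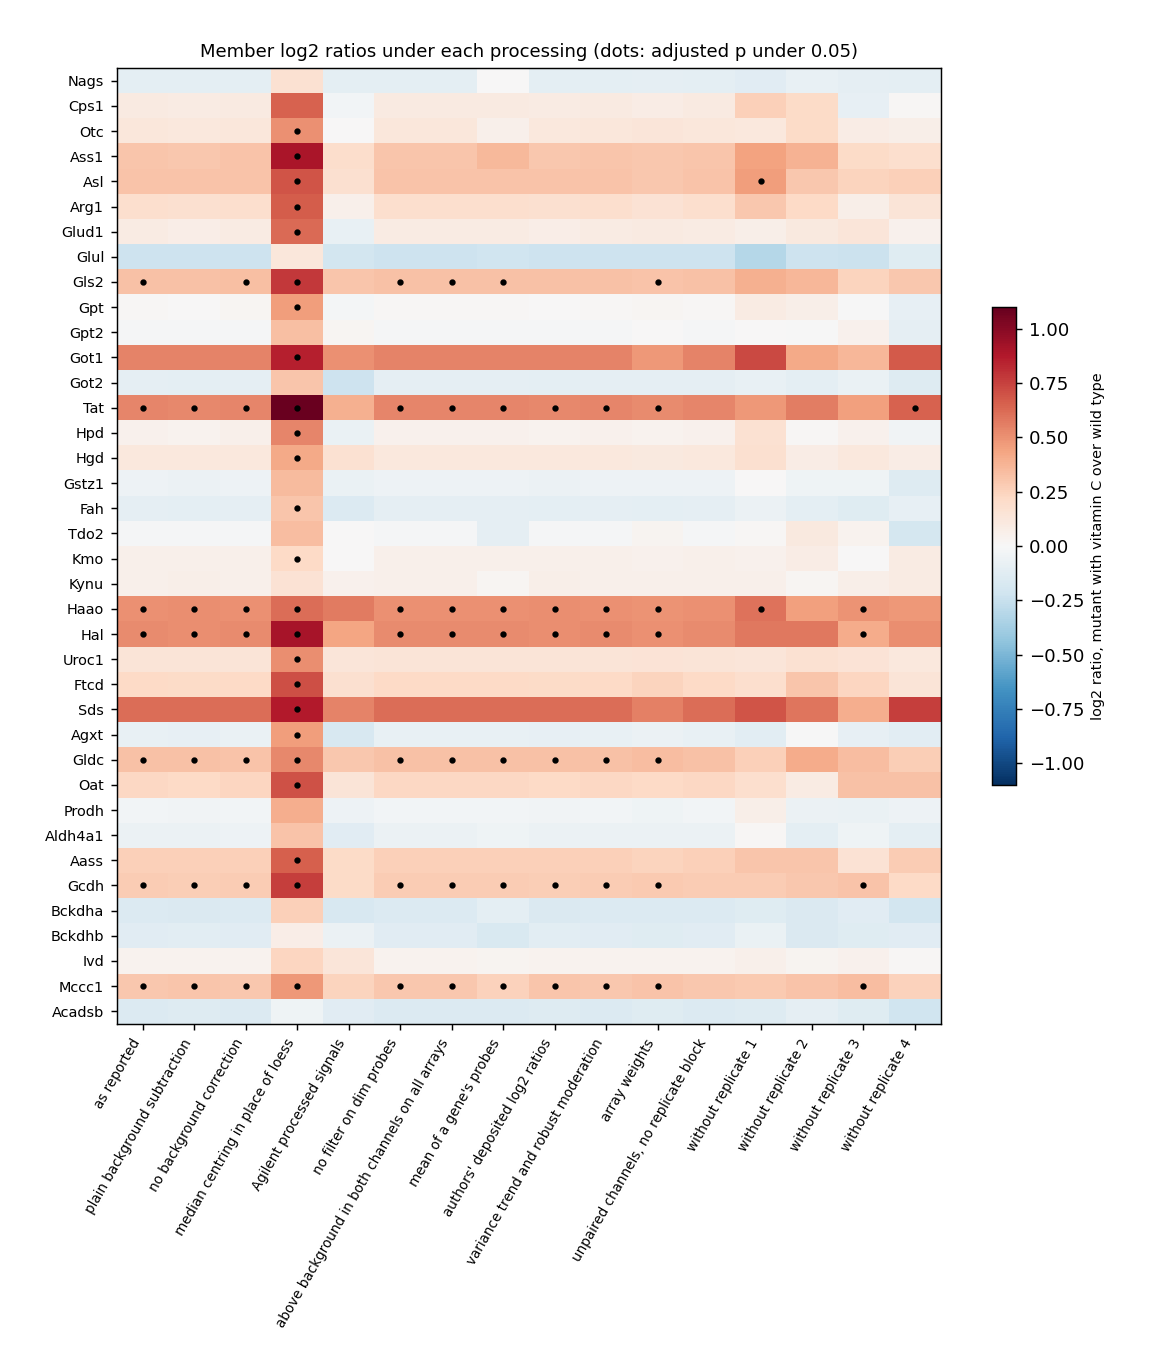
Log2 ratio of each of the 38 genes (rows) as reported and under each of 15 alternatives (columns), in red where higher and blue where lower in the mutants, with a dot where the adjusted p was under 0.05. Dots stand in 24 rows of the column for median centring, in 0 rows of those for processed signals, unpaired channels and the omission of array 2 (replicate 2), and otherwise mostly in the rows of the 7 genes.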

How the data were processed

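Liver RNA was measured on 4 arrays of 2 colours, each with 1 mutant and 1 wild-type animal, which the labels call biological replicates. Per the file headers, Agilent Feature Extraction 10.5.1.1 read the spots, and the 4 arrays shared 1 slide and 1 scan time. The deposited scanner files give the median intensity and background intensity of each channel per spot, processed signals corrected by the scanner software, and its log10 ratio. The authors' deposited table gives a log2 ratio per array and its mean, p-values plain and adjusted, and scores such as the moderated statistic. The submitters' processing notes name limma without a version. The design put mean foreground intensities first and medians where no mean is given, and medians were used.

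Normexp (offset 50) corrected the background and loess normalized the ratios within each array, in R 4.3.3 with limma 3.58.1. Control and outlier spots were removed, spots of a probe were averaged, and probes well above background in 1 channel on at least 3 arrays were kept. The deposited symbol named the gene, and its brightest probe stood for it. All 51 probes of the 38 genes were kept, and 0 were saturated. Transcript accessions gave the same RefSeq symbol for 44 probes, another for 0, and 7 were not in the reference. The mean ratio was tested against 0 with lmFit and eBayes. Levels were taken after Aquantile scaling, so a dye bias would remain in them. Set against the scanner values, the log2 ratios of the authors' deposited table had a slope of 1.00 on ratios made by plain subtraction and loess.

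The genes described and all lists of related genes were chosen with earlier results of these data known. The text names every gene of the list, up to 4 genes past the threshold in each direction of each related list, and per-array values for genes past it or with 1 sign on all arrays. Markers, Wrn and further per-array values lie outside this rule and were chosen after their values were seen. The number of arrays limits the precision. The fit was tested on simulated data. As alternatives, other choices of background, normalization, filter, probe, moderation, weights, pairing and threshold were tried, as were the ratios the authors deposited and the omission of each array in turn.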

Additional observations from a re-analysis of the deposited data

Results flagged for a closer look

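In 5 of 114 groups of 4 values (the ratios, mutant levels and wild-type levels of the 38 genes), 1 animal or array stood apart from the other 3 by Dixon's test at its 95% critical value. Chance alone gives such a flag in about 1 in 20 independent groups. These groups share the same 4 arrays, so their number was not tested against chance. The single values of Glul, Prodh, Nags and Hpd were on array 1, which had the fewest probes well above background. The gap of the single value to its nearest neighbour, as a share of the range, was 0.970 for the wild-type level of Glul, which was 14.70 on array 1 and 15.52 to 15.54 on the other arrays. The share was 0.903 for the ratio of Prodh, which was -0.33 on array 1 and 0.05 to 0.09 elsewhere. For the wild-type level of Nags it was 0.884, with 14.35 on array 1 and 14.59 to 14.62 elsewhere. For the wild-type level of Tdo2 it was 0.877, with 14.84 on array 4 and 15.32 to 15.38 elsewhere. For the mutant level of Hpd it was 0.855, with 16.19 on array 1 and 16.47 to 16.52 elsewhere. None of these genes passed the test between mutant and wild type.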

How the results depend on the processing

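The number of the 38 genes that were higher, 7 as reported, was 24 with median centring, 0 with processed signals, 0 with unpaired channels and no replicate block (the pairing of animals by array), and 0 to 4 with 1 array left out. It was 0 at an adjusted p under 0.01 and 12 at 0.1, where 1 gene, Bckdha, was lower. The median ratio of the 38 genes, 0.09, was 0.49 with median centring. Calls over all genes were then 3418 higher and 1512 lower (69.3% higher), against 1736 and 1456 (54.4%) as reported. Of the 49 other breakdown genes, 3 were higher and 1 lower as reported. With median centring 20 were higher and 0 lower, and with processed signals 1 was higher and 1 lower. Without the replicate block 0 and 0 passed, and with 1 array left out 0 to 2 were higher and 0 lower. At an adjusted p under 0.01 the counts were 1 and 0, and at 0.1 they were 7 and 2. Genes of the 38 that changed direction were not past the test as reported. With median centring, ratios turned to 0.16 for Nags, 0.13 for Glul, 0.33 for Gpt2, 0.30 for Got2, 0.35 for Gstz1, 0.30 for Fah, 0.34 for Tdo2, 0.46 for Agxt, 0.40 for Prodh, 0.32 for Aldh4a1, 0.26 for Bckdha and 0.0716 for Bckdhb. Processed signals gave -0.0306 for Cps1, -0.0854 for Glud1, -0.0229 for Gpt, 0.0235 for Gpt2, -0.0706 for Hpd and 0.00426 for Tdo2, array weights gave 0.00424 for Gpt2 and 0.0277 for Tdo2, and the mean of a gene's probes gave 0.00035 for Nags. With 1 array left out, ratios that changed sign ranged over -0.0887 to 0.26 for Cps1, -0.0926 to 0.0894 for Gpt, -0.0981 to 0.0449 for Gpt2, -0.0387 to 0.17 for Hpd, -0.14 to 0.00647 for Gstz1, -0.20 to 0.10 for Tdo2, -0.0728 to 0.0668 for Prodh and -0.11 to 0.017 for Aldh4a1. The cause of these shifts was not tested. The other settings (background, filters, probe rule, moderation, array weights and the authors' ratios) gave 6 or 7 higher and 0 lower, and Gls2 was the gene lost.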
